A study of Mus musculus with 20 samples.

Results

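Mitochondria make most of a resting cell's ATP by oxidative phosphorylation. Complex I (NADH dehydrogenase) and complex II (succinate dehydrogenase) feed electrons into the inner membrane, complex III (the cytochrome bc1 complex) and complex IV (cytochrome c oxidase) pass them on to oxygen, and complex V (ATP synthase) uses the proton gradient that results. Most subunits are encoded in the nucleus, and several complex IV subunits have one isoform in most tissues and another in striated muscle, lung or testis. The nuclear genes of these complexes were followed here as 93 genes of 19504 measured, taken by symbol: every gene whose symbol begins with Nduf, Uqcr, Cox4 to Cox8 or Atp5, plus Sdha, Sdhb, Sdhc and Sdhd. They comprised 36 subunits of complex I, 8 complex I assembly factors, 4 subunits of complex II, 8 of complex III, 20 of complex IV (isoforms and the supercomplex factor Cox7a2l included) and 17 of complex V. Each of the 93 had a single row in the table. Ndufa4 and its paralog Ndufa4l2 carry complex I symbols and were grouped with complex IV, of which Ndufa4 is now known to be a subunit. Ndufb4b is a near copy of Ndufb4, so their values may not be independent.

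Expression was measured on 20 microarrays of mouse skin melanomas. B;p38α mice carry Tyr::CreERT2, BrafCA/CA and p38αlox/lox, and B mice carry Tyr::CreERT2 and BrafCA/CA. Recombination in both depends on a Cre driven by the tyrosinase promoter, which is active in melanocytes, so p38α was deleted in that lineage and not by design in immune or stromal cells. All mice of both genotypes received 4-hydroxytamoxifen on the skin at 5 mg/ml on postnatal days 2.5 and 3.5 and 6.24 kJ per square meter of UVB on day 3.5, and tumors were taken at endpoint size. The groups were 3 B;p38α and 3 B samples of CD45+ cells, 3 B;p38α and 3 B samples of CD45- cells, and 3 B;p38α and 5 B complete tumors. CD45+ and CD45- cells were separated on magnetic beads after mechanical and enzymatic dissociation, whereas complete tumors were neither dissociated nor sorted as far as the labels say. Values are log2 levels, and differences are in log2 units.

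The labels were checked once. General leukocyte markers were higher in CD45+ than in CD45- cells for 10 of 10 genes by limma (median difference 2.68), yet their median level still reached 8.29 in B;p38α CD45- and 9.14 in B CD45- cells, so the CD45- samples retained leukocyte RNA. Markers of other cells differed too: 4 of 7 endothelial markers were higher in CD45+ than in CD45- cells, led by Kdr (1.79), Pecam1 (1.71) and Cldn5 (1.57), and 4 of 7 were higher in CD45+ cells than in complete tumors, led by Cldn5 (1.53), Kdr (1.48) and Cdh5 (1.25). Of 10 melanocyte markers, Ednrb (2.17) and Mitf (0.78) were higher and Sox10 (-0.95) was lower in CD45+ than in CD45- cells. Of 9 fibroblast markers 0 were higher and 2 lower in CD45+ than in CD45- cells, Fbln1 (-0.93) and Col1a2 (-0.63). The part of these cells in the differences between populations was not tested. The melanocyte markers, a defining list for these tumors, had median levels of 4.58 to 8.28 over all arrays, and the highest belonged to a B complete tumor. Mapk14, which encodes p38α, was lower by 0.27 in B;p38α than in B complete tumors, by 0.18 in CD45+ cells and by 0.16 in CD45- cells (limma adjusted p = 0.807, 0.672 and 0.803 in that order). The sources used here do not say where its probes lie relative to the floxed part, which makes this no firm check of the deletion. The array of B CD45- replicate 1 had an interquartile range of 2.95 and that of B CD45+ replicate 2 one of 3.41, against 3.62 to 3.89 for the other arrays. In B CD45- replicate 1, 83 of the 93 genes were below their group mean, and in B CD45+ replicate 2 it was 77. The main counts are also given without both arrays.

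The promoters of 3 genes are printed to show what a widely expressed and a muscle isoform of one subunit, and a complex I gene whose level differed between sorted cells and complete tumors, look like at their starts. Each run covers 250 bases before to 50 bases after the start that RefSeq lists first, on GRCm38.p6, read 5′ to 3′ on the gene's own strand. Capitals mark matches on either strand to the core motif of NRF1 or to CCGGAAG, a core bound by ETS factors such as GABP, both known regulators of nuclear genes for respiration. Ndufb4 (chr16:37654319-37654618, minus strand) is an accessory subunit of the membrane arm of complex I.
Ndufb4: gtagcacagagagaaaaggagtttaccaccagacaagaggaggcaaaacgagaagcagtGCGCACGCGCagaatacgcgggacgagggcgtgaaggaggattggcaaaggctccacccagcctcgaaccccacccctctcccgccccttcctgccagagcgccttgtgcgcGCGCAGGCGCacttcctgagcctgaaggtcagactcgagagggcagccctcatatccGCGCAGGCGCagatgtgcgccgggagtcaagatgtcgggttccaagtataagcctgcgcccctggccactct
Cox8a (chr19:7217567-7217866, minus strand) is the widely expressed isoform of complex IV subunit 8.
Cox8a: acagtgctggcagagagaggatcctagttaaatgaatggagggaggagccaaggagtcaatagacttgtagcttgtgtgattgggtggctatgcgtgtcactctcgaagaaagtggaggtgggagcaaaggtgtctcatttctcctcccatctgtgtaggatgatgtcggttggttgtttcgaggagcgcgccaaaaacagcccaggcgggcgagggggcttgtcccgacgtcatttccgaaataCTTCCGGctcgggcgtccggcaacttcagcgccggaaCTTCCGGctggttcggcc
Cox8b (chr7:140900397-140900696, minus strand) is its isoform of heart and skeletal muscle.
Cox8b: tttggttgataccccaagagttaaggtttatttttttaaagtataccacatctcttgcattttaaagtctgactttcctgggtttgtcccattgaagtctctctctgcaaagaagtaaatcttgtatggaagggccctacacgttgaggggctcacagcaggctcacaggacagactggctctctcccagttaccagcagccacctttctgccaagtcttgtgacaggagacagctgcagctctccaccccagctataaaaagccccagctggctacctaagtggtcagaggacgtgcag
The Ndufb4 window, unlike most complex I windows, held matches to the NRF1 motif: it held 3 matches to the NRF1 core motif and 0 to CCGGAAG, the Cox8a window held 0 and 2, and the Cox8b window held 0 of either.

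The promoter set used here held such a window for 77 of the 93 genes, although all 93 matched RefSeq genes. The NRF1 core motif was found in 18 of the 77 (23.4%), against 4.78% of 27025 promoters of all genes, and CCGGAAG in 18 of the 77 (23.4%), against 9.12%. By complex, the first was in 7 of 33 complex I promoters, 2 of 7 of its assembly factors, 2 of 3 of complex II, 1 of 5 of complex III, 1 of 14 of complex IV and 5 of 15 of complex V. CCGGAAG was in 4, 2, 2, 2, 3 and 5 promoters of the same groups in the same order. In all 9 motifs were searched on both strands, and these 2 were kept for display after their shares were seen. Of the other 7, shorter or stricter forms were also more frequent than among all promoters, with CGGAAG in 42.9% against 17.2% and the palindromic form of the NRF1 motif in 9.09% against 0.977%. AAGATGG, a core of the YY1 site, was in 14.3% against 6.48%, and GATTGG, a longer CCAAT box on the other strand, was in 24.7% against 16.6%. The last 3 were close to all promoters, with CCAAT in 44.2% against 37.9%, CANNTG in 71.4% against 72.1% and CACGTG in 7.79% against 7.24%. CGGAAG overlaps CCGGAAG, the palindromic form is a case of the NRF1 core motif, CACGTG is a case of CANNTG, and GATTGG contains CCAAT on the other strand. The 27025 promoters were not limited to the 19504 genes measured, so the shares compare unlike sets. A match describes letters in a window and is not a binding site.

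Both sorted populations had lower levels of most of these genes than complete tumors, with lower calls in every complex. In CD45+ cells 63 of the 93 were lower than in complete tumors and 0 were higher by limma at an adjusted p under 0.05, where 12.9% of all 19504 genes were called lower and 12.9% higher. In CD45- cells 49 of the 93 were lower and 0 higher, where 6.47% of all genes were called lower and 6.24% higher. The median difference over the 93 was -0.58 in CD45+ cells, against -0.003 over all genes, and -0.46 in CD45- cells, against 0.04 over all genes. The difference was negative for 86 of the 93 in each comparison, against 50.4% of all genes in CD45+ cells and 45.1% in CD45- cells. No CD45+ sample overlapped a complete tumor for 34 of the 93 genes, all lower in CD45+ cells (4.03% of all genes), and no CD45- sample did for 16, all lower in CD45- cells (1.25% of all genes). Without the arrays of narrowest range, 63 of the 93 were lower in CD45+ cells and 43 in CD45- cells (12.5% and 4.4% of all genes). Both comparisons use the same 8 complete tumors, so they are not independent of each other. In bulk samples, fewer cells of a type and less RNA per cell cannot be told apart, and dissociation and sorting cannot be told apart from the change of cell population, since every sorted sample and no complete tumor went through them.

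The median level over the 93 genes in each array shows the same separation. It was 9.12, 9.37 and 9.42 in B;p38α CD45+ cells and 9.18, 8.77 and 8.86 in B CD45+ cells. It was 9.36, 9.23 and 9.41 in B;p38α CD45- cells and 8.77, 9.16 and 9.08 in B CD45- cells. Complete tumors had 9.29, 9.74 and 9.76 in B;p38α and 9.71, 9.48, 9.76, 9.48 and 9.49 in B. All B complete tumors were above every sorted sample, while B;p38α complete replicate 1 fell inside the range of the sorted samples. Within B;p38α the difference from complete tumors was negative for 81 of 93 genes in CD45+ cells (median -0.42) and for 77 in CD45- cells (median -0.30), where 50.1% and 45.03% of all genes were negative. Within B it was negative for 91 in CD45+ cells and for 89 in CD45- cells (median -0.66 in each), where 50.7% and 49.9% of all genes were negative.

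**Figure D1:**
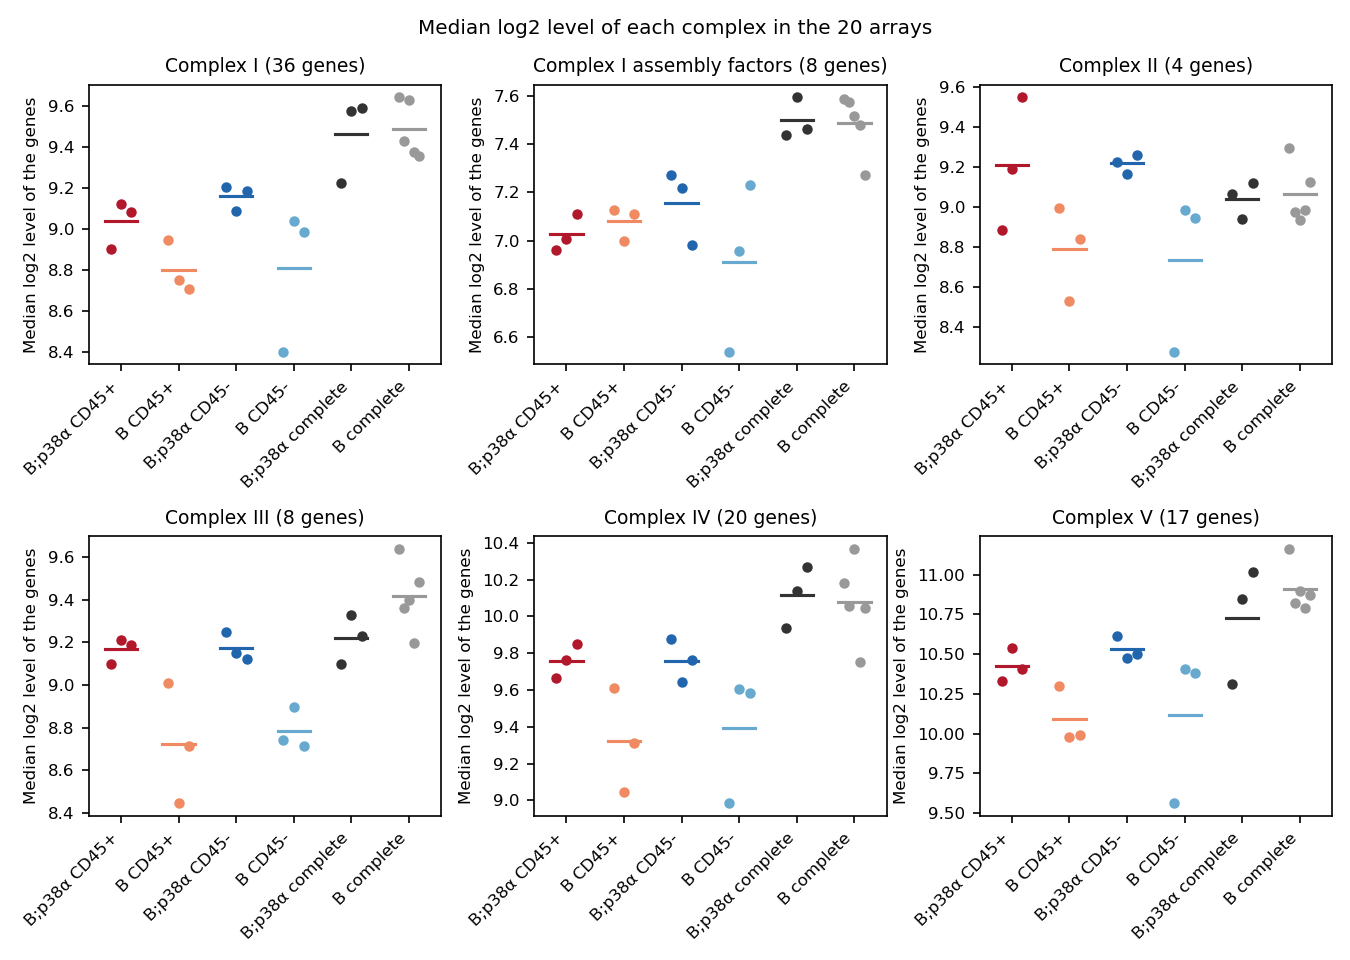
Median log2 level of the genes of each complex (vertical axis) in each of the 20 arrays, with 1 point per array and a line at the group mean; each panel has its own axis range. Complex I lies between 8.40 and 9.20 in the 12 sorted samples and between 9.22 and 9.64 in the 8 complete tumors, while complex II overlaps between sorted samples and complete tumors.

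Complex I, the largest of the complexes, had more lower calls than any other by number but not by share. The share called lower was larger for complex V in CD45+ cells and for complexes III and IV in CD45- cells. In CD45+ cells 28 of 36 subunits were lower than in complete tumors (median -0.63), and in CD45- cells 20 of 36 were (median -0.46). Ndufb4 had 9.63, 9.86 and 9.80 in B;p38α CD45+ cells, 9.74, 9.52 and 9.53 in B CD45+ cells, 10.33, 10.54 and 10.67 in B;p38α complete tumors and 10.70, 10.28, 10.52, 10.62 and 10.15 in B complete tumors. The CD45+ and complete values did not overlap, and the difference was -0.80 ± 0.11 (standard error; limma adjusted p = 4.53e-05). Its levels in CD45- cells were 10.21, 10.06 and 10.13 in B;p38α and 9.83, 10.02 and 9.86 in B, a difference from complete tumors of -0.47 ± 0.11 (limma adjusted p = 0.0111).

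Ndufb3, another accessory subunit of the membrane arm, had the largest complex I difference in CD45+ cells. It measured 7.45, 7.73 and 8.10 in B;p38α CD45+ cells, 7.61, 7.32 and 7.37 in B CD45+ cells, 8.33, 8.72 and 8.63 in B;p38α complete tumors and 9.04, 8.51, 8.77, 8.32 and 8.41 in B complete tumors. Again no CD45+ sample reached the lowest complete tumor, and the difference was -0.99 ± 0.15 (limma adjusted p = 0.000105). In CD45- cells the largest complex I difference was that of Ndufa6, an accessory subunit of the matrix arm. Ndufa6 had 8.92, 8.94 and 8.81 in B;p38α CD45- cells, 8.31, 8.58 and 8.78 in B CD45- cells, 9.63, 9.74 and 9.80 in B;p38α complete tumors and 9.51, 9.53, 9.59, 9.34 and 9.45 in B complete tumors. These values did not overlap either, with a difference of -0.88 ± 0.11 (limma adjusted p = 0.000333).

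The catalytic core had smaller median differences than the accessory subunits. Among the 30 accessory subunits 25 were lower in CD45+ cells (median -0.65) and 20 in CD45- cells (median -0.53). Of the 6 core subunits measured, 3 were lower in CD45+ cells (median -0.38) and 0 in CD45- cells (median -0.29; 4 lower and 1 higher at an unadjusted p under 0.05, where 13.7% of all genes were lower and 15.1% higher). The 3 were Ndufv2 at -0.70, Ndufs1 at -0.58, both of the NADH-oxidizing module, and Ndufs3 of the quinone-reducing module at -0.43. Ndufs7, an iron-sulfur subunit of the quinone-reducing module, was the only complex I subunit with a positive difference in both, 0.24 in CD45+ cells (-0.04 to 0.51 as the 95% interval) and 0.31 in CD45- cells (0.03 to 0.58), and it passed in neither. Of the list of 10 subunits of the NADH-oxidizing module, 9 were lower in CD45+ cells and 7 in CD45- cells. No test compared core with accessory subunits.

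Complex I assembly factors, which help build the complex and are not part of it, followed with 5 of 8 lower in CD45+ cells (median -0.58) and 2 of 8 in CD45- cells (median -0.43). The largest difference in CD45+ cells was that of Ndufaf1, -0.89 ± 0.23 (limma adjusted p = 0.00732). In CD45- cells Ndufaf5 had the largest value, -0.61 ± 0.23, which did not pass (limma adjusted p = 0.0905).

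**Figure D2:**
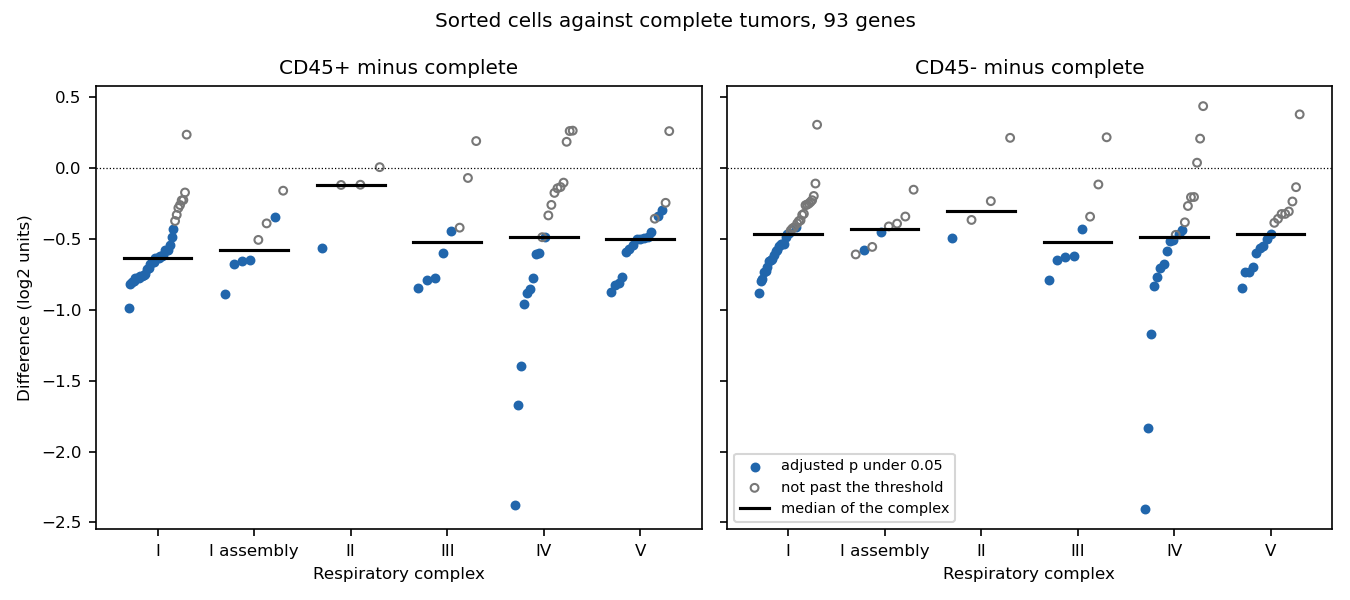
Difference in log2 level from complete tumors (vertical axis) for each of the 93 genes in CD45+ cells (left) and CD45- cells (right), with filled points for genes at an adjusted p under 0.05 and a line at the median of each complex. Filled points lie below 0 in every complex, and 63 genes are filled on the left and 49 on the right.

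Complex II, which also belongs to the citric acid cycle, changed in 1 of its 4 subunits. Sdhb, the iron-sulfur subunit, had 9.69, 9.66 and 10.12 in B;p38α CD45+ cells, 9.73, 9.41 and 9.43 in B CD45+ cells, 10.07, 10.38 and 10.25 in B;p38α complete tumors and 10.37, 10.14, 10.57, 10.14 and 9.93 in B complete tumors. One CD45+ sample, B;p38α replicate 3, overlapped the complete tumors, and the difference was -0.56 ± 0.12 (limma adjusted p = 0.00292). In CD45- cells it was -0.49 ± 0.12 (limma adjusted p = 0.0162). The flavoprotein Sdha differed by -0.12 in CD45+ cells (95% interval -0.57 to 0.34) and -0.23 in CD45- cells (-0.69 to 0.22). The membrane anchor Sdhc differed by 0.01 (-0.31 to 0.32) and 0.21 (-0.10 to 0.53), and the anchor Sdhd by -0.12 (-0.49 to 0.26) and -0.37 (-0.74 to 0.01). Sdha, Sdhc and Sdhd passed in neither population, which does not show that they were unchanged. The median over the 4 was -0.12 in CD45+ cells and -0.30 in CD45- cells.

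In complex III all the lower calls were among the small subunits. All 5 small subunits (Uqcrh, Uqcrq, Uqcrb, Uqcr10 and Uqcr11) were lower in both CD45+ cells (median -0.78) and CD45- cells (median -0.63). Uqcrh, the hinge protein, had 10.45, 10.44 and 10.60 in B;p38α CD45+ cells and 10.32, 10.20 and 10.12 in B CD45+ cells. It had 10.61, 10.25 and 10.62 in B;p38α CD45- cells and 10.01, 10.50 and 10.12 in B CD45- cells. In complete tumors it had 11.04, 11.37 and 11.03 in B;p38α and 11.27, 10.91, 11.41, 11.15 and 10.96 in B. Every complete tumor was above every sorted sample, with a difference of -0.79 ± 0.12 in CD45+ cells (limma adjusted p = 0.00012) and -0.79 ± 0.12 in CD45- cells (limma adjusted p = 0.000963). Uqcr11 had the largest difference in CD45+ cells, -0.84. None of the 3 large subunits passed: the core protein Uqcrc1 differed by 0.19 and 0.22 in CD45+ and CD45- cells, the core protein Uqcrc2 by -0.42 and -0.34, and the Rieske iron-sulfur protein Uqcrfs1 by -0.07 and -0.11. The small subunit with the least difference, Uqcrb, had -0.44 and -0.43, not far from Uqcrc2. No test compared small with large subunits.

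Complex IV had 10 of 20 genes lower in CD45+ cells and 12 of 20 in CD45- cells (median -0.49 in each). Of its 11 widely expressed subunits, 7 were lower in CD45+ cells and 8 in CD45- cells. Ndufa4 measured 10.07, 10.39 and 10.53 in B;p38α CD45+ cells, 10.62, 10.09 and 10.15 in B CD45+ cells, 11.06, 11.53 and 11.35 in B;p38α complete tumors and 11.39, 11.13, 11.37, 11.15 and 11.06 in B complete tumors. The CD45+ values lay below all complete tumors, by -0.96 ± 0.14 (limma adjusted p = 9.63e-05), and CD45- cells were lower by value and test as well (-0.77 ± 0.14, limma adjusted p = 0.0026). Cox7b, a small structural subunit, had 10.32, 10.11 and 10.30 in B;p38α CD45- cells, 9.53, 10.17 and 10.05 in B CD45- cells, 10.56, 11.16 and 10.97 in B;p38α complete tumors and 11.01, 10.76, 11.17, 10.77 and 10.88 in B complete tumors. No CD45- sample overlapped the complete tumors, and the difference was -0.83 ± 0.13 in CD45- cells (limma adjusted p = 0.00113) and -0.85 ± 0.13 in CD45+ cells (limma adjusted p = 0.000134).

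The isoforms of striated muscle had the largest differences of all 93 genes. Cox6a2, the heart and skeletal muscle isoform of subunit 6a, had 6.55, 6.38 and 7.12 in B;p38α CD45+ cells and 6.81, 6.97 and 6.94 in B CD45+ cells. It had 6.65, 6.51 and 6.32 in B;p38α CD45- cells and 7.51, 6.78 and 6.84 in B CD45- cells. In complete tumors it had 6.84, 8.46 and 10.81 in B;p38α and 9.31, 10.34, 9.76, 9.48 and 9.34 in B. All complete tumors were above the sorted samples except B;p38α complete replicate 1, which was inside their range. The difference was -2.38 ± 0.41 in CD45+ cells (limma adjusted p = 0.000357) and -2.41 ± 0.41 in CD45- cells (limma adjusted p = 0.00167). Cox8b differed by -1.67 ± 0.31 and -1.83 ± 0.31 in CD45+ and CD45- cells, and Cox7a1, the muscle isoform of subunit 7a, by -1.39 ± 0.31 and -1.17 ± 0.31, and both passed in each (limma adjusted p = 0.000709, 0.00167, 0.00312 and 0.0218 in that order). In CD45- cells the Cox7a1 call was lost without B;p38α complete replicate 3 (-0.85) or without B;p38α CD45- replicate 2 (-1.08).

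The widely expressed partners of these isoforms differed less by value. Cox7a2 was lower by -0.88 ± 0.14 on the log2 scale in CD45+ cells and -0.68 ± 0.14 in CD45- cells, and passed in both (limma adjusted p = 0.000176 and 0.00519). Cox8a differed by -0.33 ± 0.16 in CD45+ cells, which did not pass (limma adjusted p = 0.142), and by -0.51 ± 0.16 in CD45- cells, which did (limma adjusted p = 0.0435) but lost the call without B CD45- replicate 1 (-0.38). Cox6a1 differed by -0.26 in CD45+ cells (95% interval -0.54 to 0.02) and -0.27 in CD45- cells (-0.55 to 0.01) and passed in neither. The difference between partners was not tested. Cox4i1, the common form of subunit 4, differed by -0.10 and -0.20, and Cox4i2, its form in lung, by 0.26 and 0.21, and neither passed. Cox6b1 was lower in both (-0.60 and -0.70), whereas its testis form Cox6b2 (-0.49 and -0.47), the testis forms Cox7b2 (-0.17 and -0.20) and Cox8c (0.26 and 0.04) and the hypoxia-induced Ndufa4l2 (0.19 and 0.44) did not pass. Cox7b2 was the single gene of the 93 with a mean level below the 30th percentile of all genes, 5.32.

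**Figure D3:**
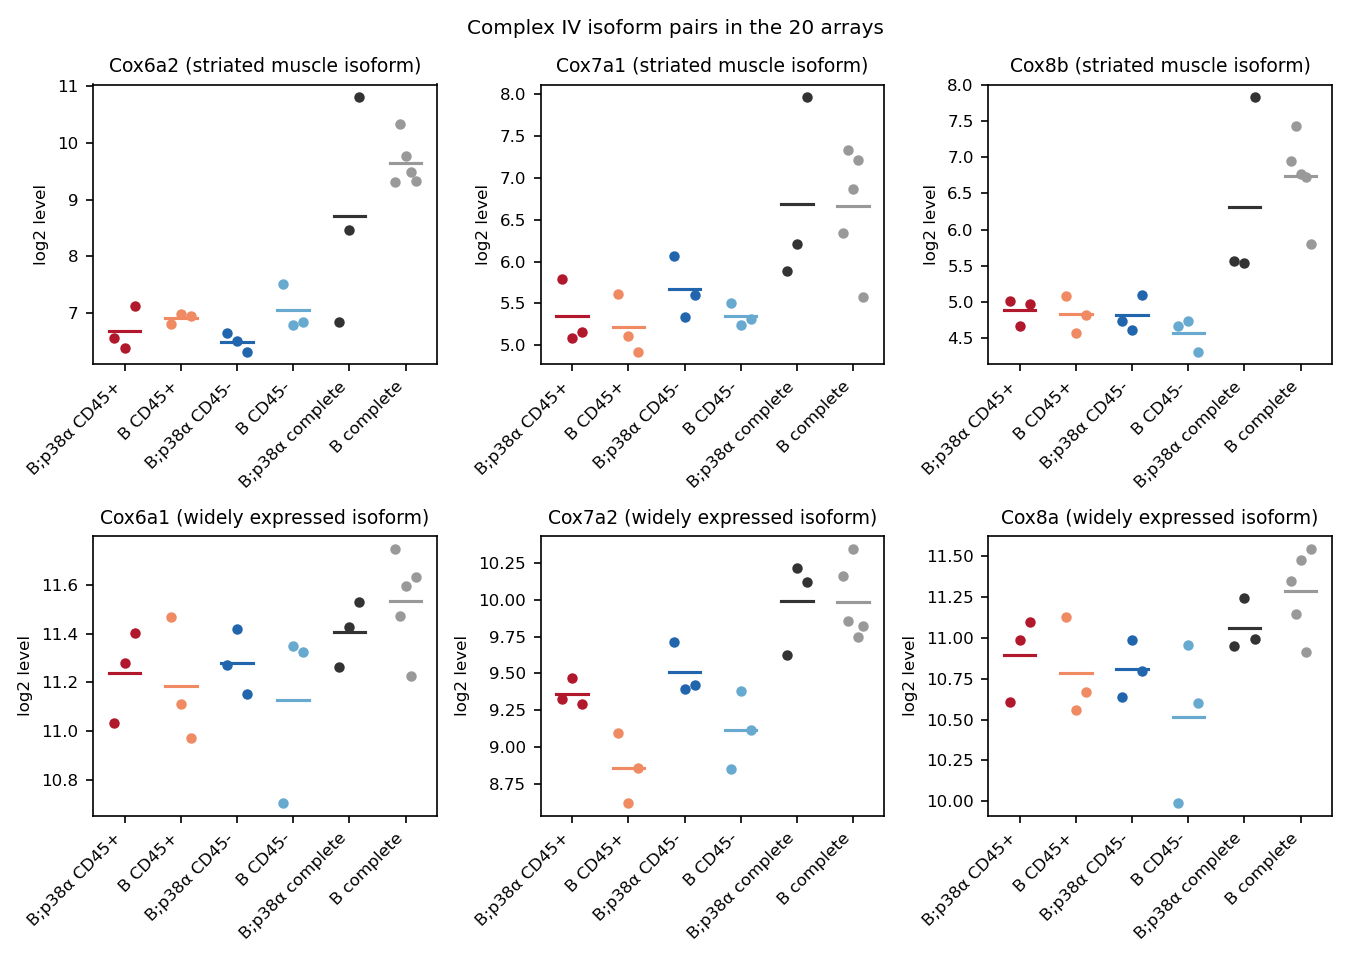
Log2 level (vertical axis, each panel with its own range) of the muscle isoforms Cox6a2, Cox7a1 and Cox8b (top) and the widely expressed isoforms Cox6a1, Cox7a2 and Cox8a (bottom) in each of the 20 arrays, with 1 point per array and a line at the group mean. Cox6a2 spans 6.84 to 10.81 in the 3 B;p38α complete tumors and 6.32 to 7.51 in the sorted samples.

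Skeletal muscle RNA moved with these results. Of 16 skeletal muscle markers, 12 were lower in CD45+ cells (median -3.33) and 12 in CD45- cells (median -3.49) than in complete tumors, led in each by the fast myosin light chain Mylpf (-5.54 and -5.81). The median level over the 16 was 5.26 to 6.06 in the 12 sorted samples, 5.75 to 10.4 in B;p38α complete tumors and 8.83 to 10.4 in B complete tumors. White adipocyte markers were lower for 4 of 7 in each sorted population, with 1 higher in CD45+ cells and 0 higher in CD45- cells, and brown adipocyte markers for 0 of 5. B;p38α complete replicate 1 was poor in muscle RNA, with 3.94 for the fast myosin heavy chain Myh4 against 6.95 to 11.2 in the other complete tumors and 3.07 to 4.93 in sorted samples. In that tumor 79 of the 93 genes were above the mean of the 12 sorted samples of both genotypes, where 48.3% of all genes were. The median over the 93 of that mean minus the tumor was -0.30. Only 31 of the 93 were above all 12 sorted samples, and the tumor's median level over the 93 fell inside their range. Without the 3 muscle isoforms and the other 5 tissue-restricted isoforms, 60 of the 85 genes that remained were lower in CD45+ cells and 46 in CD45- cells (12.9% and 6.47% of all genes). Leaving these isoforms out changes which genes are counted and removes no muscle RNA from the values of the rest. The part of muscle and fat RNA in the result was not tested.

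Complex V had 14 of 17 subunits lower in CD45+ cells (median -0.50) and 9 of 17 in CD45- cells (median -0.46). The subunits of the membrane part outside the c ring had the lowest medians, with 5 of 5 lower in CD45+ cells (median -0.77) and 4 of 5 in CD45- cells (median -0.70). Atp5mpl, a small proteolipid of that part, had 10.03, 10.48 and 10.40 in B;p38α CD45+ cells, 10.23, 9.69 and 9.73 in B CD45+ cells, 10.60, 11.34 and 11.09 in B;p38α complete tumors and 11.16, 10.48, 11.33, 10.79 and 10.85 in B complete tumors. No CD45+ sample reached the lowest complete tumor, and the difference was -0.87 ± 0.17 (limma adjusted p = 0.00127). It was -0.85 ± 0.17 in CD45- cells (limma adjusted p = 0.00505). Of the 4 subunits of the peripheral stalk 3 were lower in each population, among them Atp5o, which joins the head to the stator, at -0.83 and -0.73 in CD45+ and CD45- cells. Of the 5 subunits of the head and central stalk (Atp5a1, Atp5b, Atp5c1, Atp5d and Atp5e), 4 were lower in CD45+ cells (median -0.34). In CD45- cells 1 was, Atp5c1 (median -0.24). The catalytic subunit Atp5b differed by -0.34 and -0.13. Atp5d, a subunit of the central stalk, had positive differences of 0.26 and 0.38 and did not pass. The genes Atp5g1, Atp5g2 and Atp5g3 encode the same mature subunit of the c ring, which also lies in the membrane. They differed by -0.57, -0.45 and -0.36 in CD45+ cells and by -0.36, -0.50 and -0.31 in CD45- cells. Atp5g2 passed in both populations, Atp5g1 in CD45+ cells only and Atp5g3 in neither. These genes resemble each other, so their probes may share signal.

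The sorted populations were compared with each other over the 12 sorted samples. CD45+ minus CD45- differences gave 0 of 93 genes higher and 0 lower by limma, although 7.79% of all genes were called higher and 4.37% lower. With array weights 8 were called lower and 0 higher, for which no share of all genes is given here. Without B CD45- replicate 1 it was 2 lower and 0 higher, and the same without both arrays of narrowest range, where 5.54% of all genes were lower and 7.24% higher. In the main fit without the adjustment 1 of the 93 was above and 2 were below 0 at p under 0.05, where 11.9% of all genes were higher and 12.4% lower. The median over the 93 was -0.07, against -0.08 over all genes. Ndufb4 came closest, with 9.63, 9.86 and 9.80 in B;p38α CD45+ cells and 9.74, 9.52 and 9.53 in B CD45+ cells against 10.21, 10.06 and 10.13 in B;p38α CD45- cells and 9.83, 10.02 and 9.86 in B CD45- cells. The populations overlapped in this gene, and the difference was -0.34 ± 0.11 (limma adjusted p = 0.0688). The largest values otherwise were those of Ndufb6 (-0.40) and Ndufaf1 (-0.33) below 0 and of Ndufa6 (0.30), Cox7a2l (0.30), which helps form supercomplexes, and Cox5a (0.25) above it. For Cox4i1 the 95% interval of the difference ran from -0.23 to 0.44, and for Sdhb from -0.36 to 0.22. The other succinate dehydrogenase subunits differed by 0.11 (Sdha), -0.21 (Sdhc) and 0.25 (Sdhd), and the largest differences of complexes III and V were those of Uqcr11 (-0.22) and Atp5g1 (-0.21). The 15 isoforms ranged from -0.25 to 0.23. Among the related pathways, the glycolytic genes Hk2 (1.55) and Pfkl (0.65) were higher in CD45+ than in CD45- cells. So was Pdk1 (0.81), a kinase that inhibits pyruvate dehydrogenase, while the complex III assembly factor Lyrm7 was lower (-0.70).

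Genes of related pathways did not all follow. In CD45+ cells 12.9% of all genes were called lower and 12.9% higher than in complete tumors. In CD45- cells 6.47% were called lower and 6.24% higher. Of 35 assembly factors of complexes II to V and I outside the 93, 15 were lower in CD45+ cells than in complete tumors (median -0.30), among them the complex II factor Sdhaf4 (-0.74) and the complex III factors Ttc19 (-0.73) and Uqcc2 (-0.69). In CD45- cells 5 of the 35 were lower (median -0.21), among them the complex IV factors Cox19 (-0.60) and Cox17 (-0.56). Of 24 proteins of the mitochondrial ribosome, 9 were lower in CD45+ cells and 5 in CD45- cells, led in each by Mrpl22 (-0.93 and -0.65). The citric acid cycle list of 16 had 3 lower and 1 higher in CD45+ cells and 2 lower and 1 higher in CD45- cells, with Suclg1, a subunit of succinyl-CoA ligase, lowest in CD45+ cells (-0.63).

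Glycolysis went the other way in CD45+ cells. Of 14 genes measured from the glycolysis list, which includes Pdk1, 9 were higher and 0 lower than in complete tumors (median 0.49). Of all genes, 12.9% were called higher and 12.9% lower. The largest differences were those of the glucose transporter Slc2a1 (1.63), the phosphofructokinase Pfkl (1.49) and the hexokinase Hk2 (1.40). In CD45- cells 3 of 14 were higher and 0 lower (median -0.02), where 6.24% of all genes were called higher and 6.47% lower. The 3 were Slc2a1 (0.98), Pfkl (0.84) and the phosphoglycerate mutase Pgam1 (0.47). Of 16 regulators of mitochondrial biogenesis, the transcription factor Myc was higher in both populations (1.60 in CD45+ and 1.25 in CD45- cells), the mitochondrial single-stranded DNA binding protein Ssbp1 was lower in both (-0.74 and -0.63), and Tfam, which packages mitochondrial DNA, was lower in CD45+ cells (-0.44). Of 8 respiratory genes outside the symbol rule, the electron transfer flavoprotein subunit Etfa was lower in both (-0.57 and -0.51), the proline dehydrogenase Prodh was lower in CD45+ cells (-0.51) and the glycerol phosphate dehydrogenase Gpd2 was higher in CD45+ cells (0.55).

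Whether loss of p38α changed these genes was asked within each compartment. By limma 0 of the 93 genes were higher and 0 lower in B;p38α than in B in complete tumors, in CD45+ cells and in CD45- cells, where 0%, 0% and 0.00513% of all genes were called higher and 0%, 0% and 0.00513% lower. In CD45+ cells the difference was nonetheless positive for 82 of the 93 (50.4% of all genes), with a median of 0.25 against 0.004 over all genes. In CD45- cells it was positive for 86 (55.8% of all genes), with a median of 0.31 against 0.05. In complete tumors it was positive for 44 (48.2% of all genes), with a median of -0.01 against -0.01. Taking p under 0.05 without adjustment, CD45+ cells had 17 of the 93 higher and 0 lower (5.69% and 5.08% of all genes). CD45- cells had 5 higher and 0 lower (3.5% and 3.27% of all genes). Complete tumors had 0 higher and 1 lower, Ndufs7 at -0.40 (2.85% and 3.76% of all genes). Values of the genotypes did not overlap, with B;p38α higher, for 28 genes in CD45+ cells (9.16% of all genes) and for 28 in CD45- cells (10.6% of all genes). With array weights limma called 31 of the 93 higher and 1 lower in CD45+ cells, along with 2690 of all genes higher and 2613 lower, so the count of 0 in CD45+ cells depended on giving all arrays equal weight.

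The genotypes were unbalanced in Y-linked RNA. The mean level of 3 Y-linked genes was 3.23, 3.01 and 2.75 in B;p38α CD45+ cells, against 8.67, 4.30 and 5.36 in B CD45+ cells. It was 3.32, 8.81 and 3.30 in B;p38α CD45- cells, against 6.79, 8.60 and 2.79 in B CD45- cells. In complete tumors it was 2.99, 3.85 and 3.35 in B;p38α, against 8.93, 3.72, 3.39, 9.29 and 2.76 in B. All B CD45+ values were above all B;p38α CD45+ values, so Y-linked level and genotype cannot be told apart in CD45+ cells. With this level as a covariate the median genotype difference there was 0.49, which is not a corrected estimate since the fit extends beyond any shared range.

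Ndufb10, an accessory subunit of the membrane arm of complex I, had the largest difference in CD45+ cells. It had 8.05, 8.04 and 7.93 in B;p38α CD45+ cells, against 7.52, 6.86 and 7.20 in B CD45+ cells. All B;p38α values were above all B values, by 0.81 ± 0.20, with an unadjusted p of 0.0046 and a limma adjusted p of 0.412. Ndufb11, of the same arm, differed by 0.64, and the membrane anchor Sdhc by 0.61 in CD45+ cells and 0.69 in CD45- cells. Sdhc had 8.72, 8.94 and 9.13 in B;p38α CD45+ cells, against 8.57, 8.07 and 8.33 in B CD45+ cells. It had 9.10, 9.06 and 9.38 in B;p38α CD45- cells, against 8.12, 8.65 and 8.70 in B CD45- cells. The genotypes did not overlap in either population, and its limma adjusted p came to 0.439 in CD45+ and 0.675 in CD45- cells.

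Below 0 in CD45+ cells, the largest differences were those of the testis forms Cox6b2 (-0.52 ± 0.34) and Cox8c (-0.27 ± 0.15) and of Cox6a2 (-0.22 ± 0.22), with limma adjusted p of 0.563, 0.507 and 0.688 in that order. The largest of the other groups were Uqcr10 of complex III (0.53), Atp5e of complex V (0.61) and the assembly factor Ndufaf3 (0.34). Sdha differed by 0.57, Sdhb by 0.30 and Sdhd by 0.23. The widely expressed isoforms ranged from 0.04 to 0.51 and the tissue-restricted ones from -0.52 to 0.33.

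In CD45- cells Ndufa10, an accessory subunit, had 9.76, 9.55 and 9.63 in B;p38α, against 8.77, 9.05 and 9.01 in B. These values did not overlap, and the difference was 0.70 ± 0.20 (unadjusted p = 0.00965, limma adjusted p = 0.675). Cox6b2, the testis form, had the largest value in CD45- cells, 1.56 ± 0.63 (limma adjusted p = 0.675), with 5.92, 8.01 and 6.58 in B;p38α, against 4.25, 5.84 and 5.73 in B. The B array at 4.25 is the one with the narrowest range of values, and without both such arrays the difference was 1.05 in CD45- cells and -0.75 in CD45+ cells. Below 0 in CD45- cells, the largest differences were those of Cox6a2 (-0.55 ± 0.26), Ndufa4l2 (-0.41 ± 0.66) and Ndufa5 (-0.29 ± 0.22), an accessory subunit of the matrix arm (limma adjusted p = 0.675, 0.831 and 0.688 in that order). The largest of the other groups were Atp5md of complex V (0.67), the assembly factor Ndufaf5 (0.59) and Uqcr11 (0.47). Sdha differed by 0.61, Sdhb by 0.33 and Sdhd by 0.27. The widely expressed isoforms ranged from 0.11 to 0.57 and the tissue-restricted ones from -0.55 to 1.56. Complex II had the highest median of the complexes in each sorted population, 0.44 in CD45+ and 0.47 in CD45- cells, from 4 genes.

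In complete tumors the largest differences below 0 were those of Cox6a2 (-0.94 ± 0.69), Ndufa4l2 (-0.54 ± 0.36) and Cox8b (-0.42 ± 0.53), and those above 0 were Cox6b2 (0.40 ± 0.21), Ndufs5 (0.31 ± 0.16) and Ndufa6 (0.24 ± 0.14). None passed (limma adjusted p = 0.856, 0.843, 0.921, 0.781, 0.778 and 0.812 in that order). The largest of the other groups were Uqcrc1 (-0.35), Atp5d (-0.30) and the assembly factor Ndufaf4 (0.22). Sdha differed by -0.11, Sdhb by 0.00, Sdhc by -0.05 and Sdhd by 0.01. The widely expressed isoforms ranged from -0.23 to 0.09 and the tissue-restricted ones from -0.94 to 0.40.

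**Figure D4:**
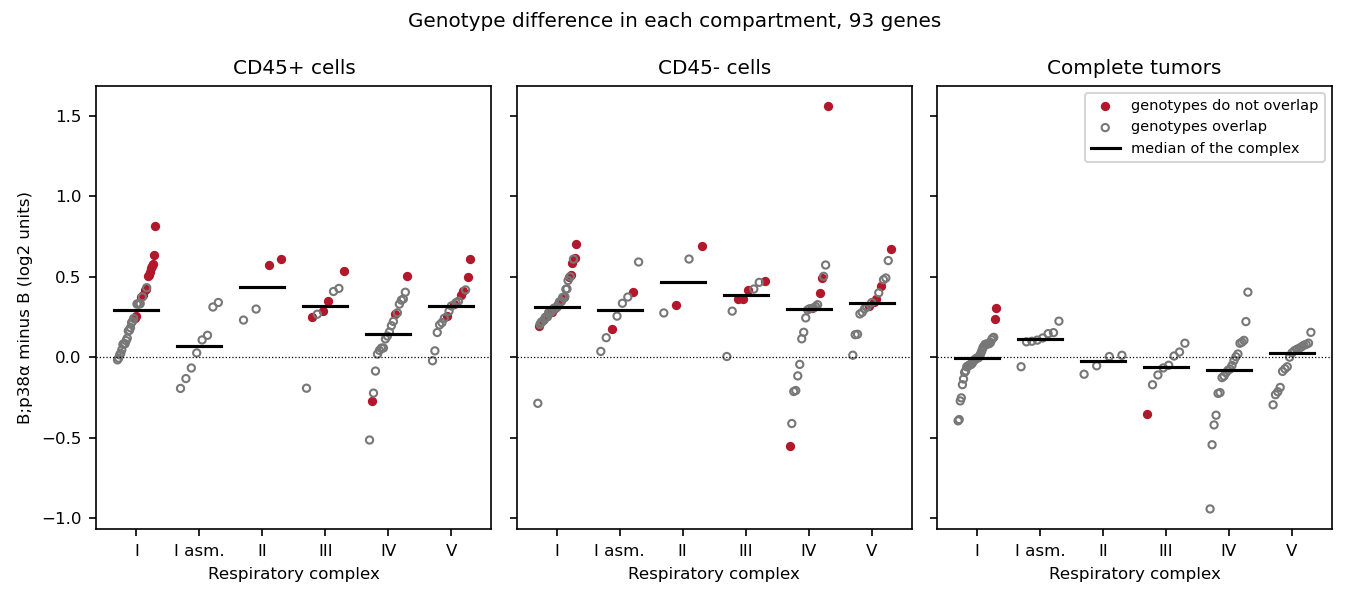
B;p38α minus B difference in log2 level (vertical axis) for each of the 93 genes in CD45+ cells, CD45- cells and complete tumors, by complex, with filled points where the genotypes' values do not overlap and a line at the median of each complex. Most points lie above 0 in the sorted populations (82 and 86 of 93) and on both sides of 0 in complete tumors (44 of 93 above), and none passed an adjusted p under 0.05.

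The genotype difference was set against itself between compartments. The genotype difference in CD45+ cells minus that in complete tumors had a median of 0.29 over the 93, that in CD45- cells minus complete tumors 0.35, and that in CD45+ minus CD45- cells -0.06. By limma 0 of the 93 passed in any of these, where 0% of all genes did in either direction. Without adjustment, p under 0.05 was reached by 14 of the 93 above 0 and 0 below it for CD45+ cells minus complete tumors (4.06% and 3.16% of all genes). For CD45- cells minus complete tumors it was 12 and 0 (5.78% and 3.9%), and for CD45+ minus CD45- cells 0 and 1 (1.04% and 0.913%). The 1 was Cox6b2 (-2.07 ± 0.79, unadjusted p = 0.0229), whose genotype difference was negative in CD45+ and positive in CD45- cells. For CD45+ cells minus complete tumors the largest values were those of Ndufb10 (0.87), Ndufb2 (0.83) and Atp5e (0.79) above 0 and Cox6b2 (-0.92), Cox8c (-0.49) and Ndufaf5 (-0.30) below it. For CD45- cells minus complete tumors they were Cox6b2 (1.16), Atp5md (0.89) and Ndufb8 (0.89) above 0 and Ndufa5 (-0.37), Cox8c (-0.34) and Cox7b2 (-0.31) below it. The arrays with the narrowest range of values both belong to B, and without them the genotype median was 0.20 in CD45+ cells and 0.18 in CD45- cells. The difference was then positive for 80 of the 93 in CD45+ cells and 76 in CD45- cells (51% and 53.6% of all genes). At p under 0.05 without adjustment, 4 were then higher in CD45+ cells and 3 in CD45- cells (3.05% and 2.86% of all genes), and the genotypes did not overlap, with B;p38α higher, for 30 in each (11.8% and 14.4% of all genes). Other markers moved by value with genotype in the sorted cells: proliferation markers were positive for 9 of 9 in CD45+ cells (median 0.55) and 8 of 9 in CD45- cells (median 0.35), and general leukocyte markers were negative for 10 of 10 in CD45- cells (median -1.42), with 0 past the threshold. The median leukocyte marker level was 6.10 to 8.29 in B;p38α CD45- cells and 8.87 to 9.14 in B CD45- cells. The part of these in the genotype values was not tested.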

How the data were processed

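RNA of 20 samples was hybridised to microarrays. The deposited log2 values are RMA output made by the authors, per the submitters' processing notes, where no version is named. They were thus background-corrected, normalized and summarized already, and the sources used here do not say which arrays were processed as one set. GEO's platform annotation gave 1 symbol to 19570 of 21244 rows. The row with the highest mean was kept per symbol, leaving out 66 rows and 19504 genes tested, with no filter on dim genes. Groups came from the sample labels. Differences were tested in limma (version 3.58.1, run under R 4.3.3) by eBayes after lmFit, adjusted by Benjamini-Hochberg over 19504 genes with a threshold of 0.05, and intervals are 95%. Differences of the sorted populations are means over both genotypes. Replicates are labelled biological, and the number of arrays limits the precision. The table held 0 columns of other samples. The procedure was tested on simulated data. The genes, lists and comparisons were chosen with earlier results of these data known. The rule for named genes took, per comparison, the 5 largest differences each way past the threshold (or the 3 largest, said not to pass), the largest of each complex, the succinate dehydrogenase subunits, the isoform pairs and up to 3 called genes of each list. The text departs from it in giving isoforms as ranges between genotypes and between sorted populations, only the largest values for comparisons of genotype differences, and some list genes as counts; other named genes were chosen after their values were seen. All 93 symbols matched RefSeq of GRCm38.p6, and the promoters available here were searched in Python 3.11.15. Alternatives were all groups in one fit, a filter on dim genes, repeated quantile normalization, array weights, trended robust variance, all rows per gene, a replicate block, Y-linked level as a covariate and leaving out each array.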

Additional observations from a re-analysis of the deposited data

Results flagged for a closer look

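Ndufb8, an accessory subunit of complex I, had a single value apart from the rest of its group. B complete replicate 4 measured 7.34, against 7.95 to 8.16 in the other 4 B complete tumors, and the gap made up 0.745 of the group's range, above Dixon's 95% critical value of 0.71. Chance flags about 1 in 20 groups, and 48 genes were checked in the group.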

How the results depend on the processing

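Among the named genes, no difference past the threshold changed sign under any alternative. With array weights, 31 of the 93 genes were called higher and 1 lower in B;p38α than in B CD45+ cells, 8 lower in CD45+ than in CD45- cells, 1 higher in CD45+ cells and 1 higher in CD45- cells than in complete tumors, and 3 had a genotype difference higher in CD45+ cells than in complete tumors. Beside the 31 and 1, 2690 and 2613 of all genes were called. The other array-weight counts have no such number here and are not read as results about the 93. The median genotype difference in CD45+ cells was 0.49 with the Y-linked level as a covariate, though that level did not overlap between the genotypes there. Lower in CD45+ than in CD45- cells were 1 gene after leaving out dim genes, 1 after repeated quantile normalization and 1 with trended robust variance. These counts have no number of all genes here and are not read as results about the 93 (main fit, 4.37% of all genes lower). Without the arrays of narrowest range, an alternative chosen after seeing the data, 2 were lower in CD45+ than in CD45- cells (5.54% of all genes). Without those arrays 1 gene was higher in CD45- cells than in complete tumors (7.03% of all genes). With single arrays left out, counts ran from 0 to 2 for CD45+ below CD45- cells (444 to 1587 of all genes), with 2 without B CD45- replicate 1. They ran from 0 to 1 for CD45- cells above complete tumors (720 to 1467 of all genes), with 1 without the same array. The counts below complete tumors ran from 59 to 67 in CD45+ cells (2008 to 2938 of all genes). In CD45- cells they ran from 39 to 57 (708 to 1523 of all genes). The genotype median ran from 0.20 to 0.34 in CD45+ cells, from 0.18 (without B CD45- replicate 1) to 0.43 in CD45- cells, and from -0.07 to 0.11 in complete tumors. The Cox8a call in CD45- cells was lost in 11 of the 20 fits without an array. The replicate numbers were not taken as a pairing, since same-numbered CD45+ and CD45- samples had correlations of deviations between -0.57 and 0.36. With the replicate block 31 genes were lower in CD45- cells than in complete tumors, and other counts stayed within 1.5 times. No share of all genes is given here for that fit, so the 31 is not read as a result about the 93. The causes were not tested. Counting each named gene under each alternative as 1 value, the sign differed from the reported one, always for a gene not past the threshold, in 30 of 399 values for the genotype comparison of complete tumors, 28 of 359 for CD45+ cells and 10 of 359 for CD45- cells. It differed in 40 of 566 for CD45+ against CD45- cells, 8 of 671 for CD45+ cells and 4 of 699 for CD45- cells against complete tumors. For the genotype differences compared it was 66 of 482 (CD45+ against CD45- cells), 13 of 671 (CD45+ cells against complete tumors) and 19 of 671 (CD45- cells against complete tumors). The number of arrays limits the precision.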
